A study of Mus musculus with 73 samples.

Results

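HNF6 binding was compared between 3 control livers and 2 livers that had lost Foxa1 and Foxa2 during development. These 5 chromatin immunoprecipitation (ChIP) samples, of 73 samples in the series, were chosen by their titles, and each has its own deposited list of peaks. The controls carried Foxa1L/L;2L/L, alleles that Cre can remove, and no Cre. The developmental nulls carried Foxa1L/L;2L/L Alfp Cre, a transgene that drives Cre in the fetal liver, so every comparison below is of Cre-carrying with Cre-free livers on 1 allele background. All 5 mice were 8 weeks old per the labels, which give no sex and do not say that replicates were separate animals, so p-values measure only the spread between these samples. DNA methylation came from 2 control and 2 developmental null libraries of whole-genome bisulfite sequencing (WGBS, 8 weeks) and from 4 and 4 libraries of reduced representation bisulfite sequencing (RRBS) at 20 days, 8 weeks, 4 months and 6 months. Peak lists of 2 adult nulls, Foxa1L/L;2L/L mice given an AAV8 virus with Cre under the hepatocyte promoter Tbg as adults, were used only as a further reference. The ChIP samples are labelled as liver and the WGBS samples as hepatocytes. No expression was measured in these samples, so neither the liver identity of the tissue nor the loss of Foxa1 and Foxa2 was checked here.

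HNF6, also called ONECUT1, is a cut-homeodomain transcription factor of hepatocytes and bile duct cells that binds enhancers and promoters of liver genes. FoxA proteins are forkhead factors that can bind DNA in closed chromatin, and HNF6 and FoxA motifs often lie in the same liver enhancers. Active enhancers usually carry little DNA methylation, which is why binding and methylation can be read side by side.

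The libraries were unequal in ways that bear on every result. Tags left after the caller's filter numbered 27470593, 20916488 and 30469386 in controls 1, 2 and 3, and 16760874 and 24213589 in developmental nulls 1 and 2. Control 3 stood apart from the other controls: its median peak was 84 bp wide against 150 and 131 bp, close to 87.5 and 82 bp in the nulls. The fragment length estimated by the caller was 101 and 87 bp in controls 1 and 2, but 53 bp in control 3 and 56 and 52 bp in the nulls, near the tag length of 49 or 50 bp. Control 3 had the most tags after the filter and the third most before it, 49177463 against 59056139 and 49308678 in controls 1 and 2. The lists cannot tell whether control 3 differs through its liver, its label or its library, and every comparison of controls with nulls below carries this limit.

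The nulls had shorter lists than 2 of the 3 controls. Control 1 had 5767 peaks, control 2 had 4652 and control 3 had 1770, against 3122 in null 1 and 1188 in null 2. Control 3 lay between the nulls, so the groups overlapped. The mean was 4063 ± 2063 (SD, n = 3) in controls and 2155 ± 1368 (SD, n = 2) in nulls, a difference of -1908 (two-sided exact permutation p = 0.4, where the smallest p possible with 3 against 2 is 0.2). In these bulk samples, binding in fewer cells and weaker binding per cell cannot be told apart.

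Autosomes and sex chromosomes behaved differently. On autosomes, controls 1, 2 and 3 had 4963, 3863 and 965 peaks and the nulls 1373 and 650. On chromosome X the controls had 728, 721 and 679 peaks, a narrow range, while null 1 had 1552 and null 2 had 472. Chromosomes X, Y and the mitochondrion together held 13.9% and 17.0% of the peaks of controls 1 and 2, 45.5% of control 3, and 56.0% and 45.3% of the nulls. The share was thus as high in control 3 as in null 2, and the groups differed by less than their spread allows to be called (25.5% ± 17.4, n = 3, against 50.7% ± 7.59, n = 2; exact permutation p = 0.4).

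**Figure D1:**
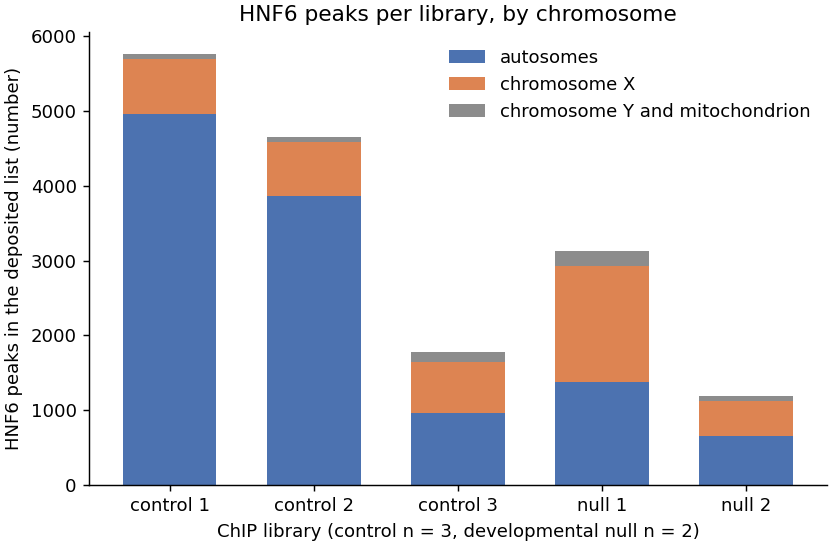
HNF6 peaks in each deposited list (bars, number of peaks), stacked by chromosome class, for 3 control and 2 developmental null libraries. Controls 1 and 2 have 4963 and 3863 autosomal peaks, while control 3 and both nulls have 650 to 1373.

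Much of the sex-chromosome signal lay in a few crowded stretches. All 5 lists merged into 8788 regions, and windows of 1 Mb with at least 20 regions, here called dense windows, numbered 23 and held 2808 of them; the median window with any region had 3. On chromosome X, 2077 of 2226 regions lay in dense windows. The most crowded stretch, mm9 chrX:120000001-123000000, had 480, 474 and 534 peaks in the controls and 951 and 360 in the nulls. The control values were close together there and the nulls fell on both sides of them. Null 1 alone had 102 peaks at chr9:3000001-4000000, where the other 4 lists had 0, with a median fold enrichment of 1.77; fold enrichment is the authors' own value for each peak, the tag pileup over the local background. The WGBS table of FoxA sites used below has no site on chromosome X, and because of these stretches most results are given for autosomes, a choice made after seeing the data.

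Regions found in 2 control lists served as the reference for controls and nulls. For each control, the reference was the regions shared by the other 2 controls; for each null it was each of the 3 control pairs in turn, averaged. A list held a region when one of its peaks overlapped it by at least 1 bp. On autosomes control 1 held 98.8% and control 2 held 95.3%, but control 3 held 25.6% of its reference, below the 43.0% of null 1 and the 31.6% of null 2. Over all chromosomes the shares were 92.2%, 88.2% and 30.4% in controls and 50.7% and 35.5% in nulls, which differ by -27.2 points (p = 0.6 by exact permutation). The result turned on control 3: its reference of 3138 autosomal regions was the longer one shared by controls 1 and 2. The null means also took in the shorter references of 844 and 812 regions. There null 1 held 51.5% and 52.7%, and null 2 held 39.2% and 40.1%. Control 3 and the null means were therefore not on the same reference, and the exact permutation test carries this limit.

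On the reference of controls 1 and 2, control 3 and null 1 held nearly equal numbers. Of the 3138 autosomal regions shared by controls 1 and 2, control 3 held 804 (25.6%, Wilson 95% interval 24.1% to 27.2%), null 1 held 780 (24.9%, 23.4% to 26.4%) and null 2 held 487 (15.5%, 14.3% to 16.8%). These intervals cover counting error only. Control 3 and null 1 shared 422 of these regions, which is 52.5% of the regions of control 3 and 54.1% of those of null 1. Null 2 shared 324 with control 3 and 344 with null 1, or 66.5% and 70.6% of its 487. Of the regions that null 1 lacked control 3 held 16.2%, and of those that null 2 lacked 18.1%, against 25.6% of all 3138.

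Holding followed the strength of the region in controls. The regions were cut into 10 strength bins of equal size by mean rank of fold enrichment in controls 1 and 2, bin 1 being the strongest. In bin 1 control 3 held 84.7% of 314 regions, null 1 held 73.6% and null 2 held 64.6%. In bin 3 the shares were 41.1%, 35.0% and 21.0%, and in bin 7 they were 4.47%, 7.35% and 3.51%. Control 3 was above both nulls in bins 1 to 4, null 2 was below control 3 in bins 1 to 9 and level with it in bin 10, and null 1 was above control 3 in bins 5 to 10. The adult null lists, made with MACS 1.4.3, held 99.4% and 99.7% of bin 1 and 46.2% and 64.6% of bin 10.

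**Figure D2:**
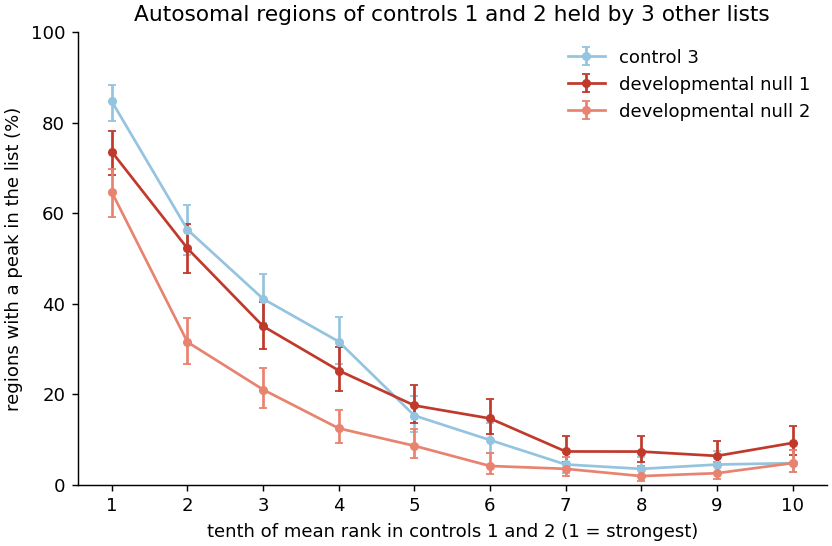
Share (%, with Wilson 95% intervals) of the 3138 autosomal regions of controls 1 and 2 that 3 other lists held, in 10 bins of mean rank in controls 1 and 2 (1 is strongest). All 3 curves fall, from 84.7%, 73.6% and 64.6% in bin 1 to at most 9.24% in bin 10, with control 3 on top in bins 1 to 4.

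With lists of equal length every control lay above both nulls. When every autosomal list was reduced to its 650 peaks of highest fold enrichment, controls 1, 2 and 3 held 79.6%, 75.9% and 66.3% of the regions of the other 2 controls, and the nulls held 52.2% and 55.2%. The means were 73.9% ± 6.89 (SD, n = 3) and 53.7% ± 2.13 (SD, n = 2), which differ by -20.2 points; the exact permutation p = 0.2 is the smallest this design can give. Over all chromosomes, with 1188 peaks a list, the shares were 84.9%, 82.6% and 55.4% in controls against 34.1% and 45.5% in nulls. Outside dense windows, with 529 peaks a list, control 3 and null 2 came within 2 points of each other, at 64.4% and 63.1%, and null 1 stood at 50.8%. Each cut left the list of null 2 whole and took only the strongest peaks of the other lists. The part of this selection in the differences was not tested.

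**Figure D3:**
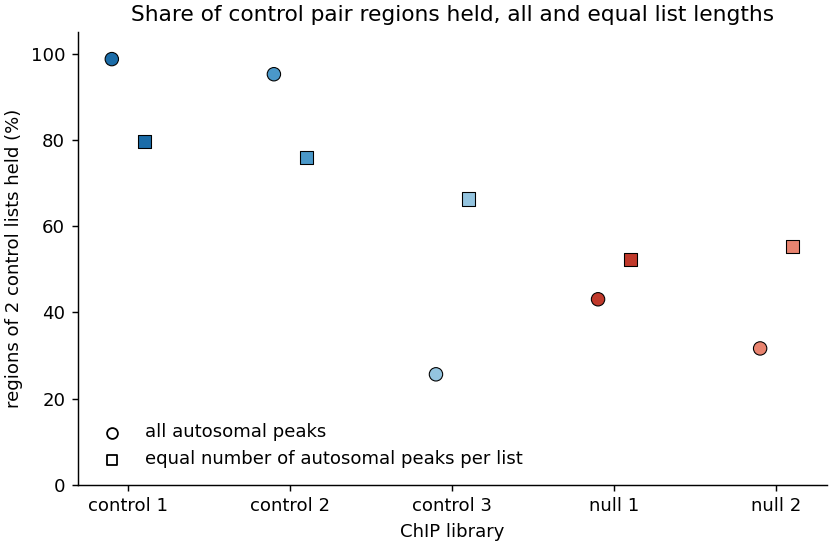
Share (%) of regions of 2 control lists held by each library on autosomes, with all peaks (circles) and with 650 peaks per list (squares); null values are means over the 3 control pairs. With all peaks control 3, read on the longest reference, is the lowest at 25.6%. With equal lengths, which keep the whole list of null 2 but only the strongest peaks of the others, the controls lie between 66.3% and 79.6%. The nulls then lie at 52.2% and 55.2%.

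A peak in all 3 control lists defined 1078 reproducible control regions, 804 of them on autosomes and 238 on chromosome X. Null 1 held 52.5% of the autosomal ones (49.0% to 55.9%) and 84.5% of those on chromosome X (79.3% to 88.5%). Null 2 held 40.3% (37.0% to 43.7%) and 58.4% (52.1% to 64.5%). The adult null lists held 95.1% and 97.0% of the autosomal regions, although their wider peaks come from another caller version, whose part in this share was not tested. No test was made because the controls hold all these regions by construction.

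These regions were sorted into 3 classes: kept, with a peak in both nulls; partly kept, in 1; and missing, in neither. Of the 804 autosomal regions 259 were kept, 228 partly kept and 317 missing. Kept regions were the stronger ones: their median fold enrichment in control 1 was 22.7, against 18.4 for partly kept and 15.4 for missing regions, and 185 of 259 kept but 76 of 317 missing regions were in the top of 3 equal bins that all 1078 regions fill by mean control rank. Of the autosomal regions in the top bin null 1 held 72% and null 2 held 58.5%, in the middle bin 42.3% and 29.6%, and in the bottom bin 16.3% and 10.9%. Null summits near the missing regions were rare: of the 382 autosomal regions that null 1 lacked, 0 had a null 1 summit within 500 bp of the centre, and for null 2 it was 1 of 480. Of the 317 missing regions, 274 had a peak in both adult null lists and 16 in neither. Missing regions were the class least held there. Adult null lists 1 and 2 held 88.0% and 93.4% of missing autosomal regions. They held 99.6% and 99.1% of partly kept and 100% and 99.6% of kept ones.

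The 8 kept regions with the best mean control rank are named by position, since no gene annotation of the mm9 build was used. The strongest, chr3:118194834-118195147, had a fold enrichment of 53.3, 51.2 and 21.5 in the controls and of 19.3 and 16.2 in the nulls. It ranked 1, 2 and 1 in the control lists and 13 and 9 in the null lists, so it was near the top of every list. At chr13:115255705-115255938 the fold enrichment was 42.2, 31.4 and 13.4 in controls and 18.6 and 12.5 in nulls. The region chr10:86308110-86308530 kept its peak at a far lower place: it ranked 40, 11 and 14 in controls but 2658 of 3122 in null 1 and 528.5 of 1188 in null 2. Ranks in lists of different length show places in each list and no change. The other 5 were chr16:24078236-24078509, chr6:24212806-24213065, chr9:74504312-74504559, chr7:46594722-46595126 and chr17:30800182-30800601, and 5 of the 8 overlapped a FoxA site.

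The 8 missing regions with the best mean control rank are, by that choice, strong in the controls. At chr19:46174101-46174441 the fold enrichment was 29.2, 21.3 and 11.8 and the rank 77.5, 167 and 36 in the 3 controls. At chr16:9527421-9527702 it was 33.0, 18.8 and 12.3, and this region overlapped a FoxA site. At chr12:45008219-45008431 it was 26.9, 26.9 and 8.00, and at chr1:177538203-177538489 it was 20.3, 24.9 and 12.0. The median autosomal fold enrichment was 8.87, 8.11 and 6.44 in the control lists. Values above it follow from the choice by rank of fold enrichment and are no further result. The remaining 4 were chr1:138738540-138738784, chr15:75150681-75151065, chr9:78005234-78005417 and chr11:115961076-115961290. All 8 had a peak in both adult null lists, as did the 8 named kept regions. Of the 8 missing regions 4 overlapped a FoxA site, and the nearest null summit was at least 168639 bp away.

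Where a peak was shared by all 5 lists, the fold enrichment of control 3 resembled that of the nulls. Over the 259 kept autosomal regions its median was 22.7 in control 1 and 18.8 in control 2, but 7.49 in control 3, 8.01 in null 1 and 7.17 in null 2. The highest values were 53.3, 51.5 and 21.5 in controls and 40.6 and 24.6 in nulls. Kept regions sat high in every list, at a median place of 4.07% and 5.31% from the top in controls 1 and 2, 23.6% in control 3, and 20.9% and 26.6% in the nulls. Across these 259 regions, Spearman's rho of fold enrichment was 0.63 between controls 1 and 2, 0.39 between the nulls, 0.41 and 0.47 between control 3 and the other controls, and 0.22 to 0.40 between a control and a null. Regions are not independent replicates, so these are descriptions. On chromosome X the 124 kept regions had medians of 5.10, 5.24 and 5.77 in controls and 7.99 and 5.83 in nulls.

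Few regions were found in both nulls and in no control. Both null lists shared 739 regions, of which 401 had a peak in all 3 controls and 66 in none. Of these 66, 60 lay in dense windows, 43 on chromosome X and 18 on autosomes. Of the 18 on autosomes, 13 lay in dense windows and 0 overlapped a FoxA site, a 400 bp site of the methylation table described below, against 116 of the 258 autosomal regions that both nulls shared with all 3 controls. Among the 6 with the best mean null rank, chrY:2431395-2431482 had a fold enrichment of 17.9 and 8.66 and the only one outside dense windows, chr2:125973625-125973681, had 10.9 and 8.96. The other 4 were chrX:121521784-121521850, chrX:121891472-121891548, chrX:53412391-53412454 and chrX:120576862-120576924, with fold enrichments of 8.97 to 10.9 in null 1 and 7.07 to 10.8 in null 2.

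A smaller share of null peaks than of control peaks overlapped FoxA sites in these libraries. FoxA sites are the 400 bp sites of the authors' WGBS table, 33302 in all; the sources used here do not say how they were defined. Of the autosomal peaks, 36.7%, 37.9% and 41.5% overlapped a FoxA site in controls 1, 2 and 3, against 26.0% and 30.9% in the nulls. Control 3, which resembled the nulls in peak number and width, had the highest share. The means were 38.7% ± 2.46 (SD, n = 3) and 28.5% ± 3.48 (SD, n = 2), which differ by -10.2 points (p = 0.2 by exact permutation, again the lowest this design can give). Counting only peaks whose summit lay inside a FoxA site gave 34.3%, 35.6% and 39.5% against 25.0% and 29.8%. With 650 peaks a list it was 52.5%, 50.0% and 44.3% against 33.4% and 30.9%, and all 3 controls were again above both nulls. These 650 peaks are the whole autosomal list of null 2 but only the strongest part of the other lists. FoxA sites were commoner at strong regions of controls 1 and 2, as given below. The part of this selection in the gap was not tested.

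The separation was smaller away from dense windows. There the shares were 37.5%, 39.2% and 44.0% in controls and 32.6% and 38.0% in nulls, so null 2 came above control 1 (difference -4.93 points, exact permutation p = 0.4). With 529 peaks a list outside dense windows, the controls stood at 53.5%, 50.3% and 45.4% and the nulls at 36.5% and 38.0%, without overlap. Here too the cut left the list of null 2 whole and took the strongest peaks of the others. This comparison was added after seeing the data.

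**Figure D4:**
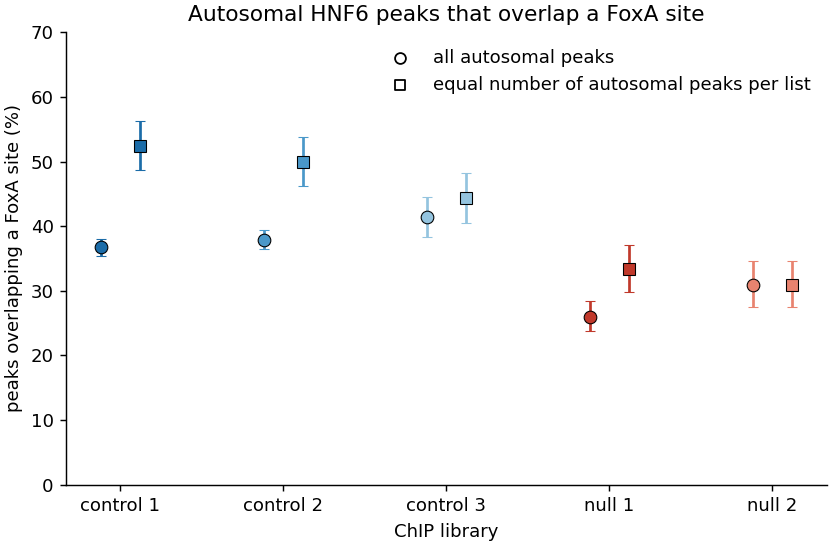
Share (%, with Wilson 95% intervals) of autosomal HNF6 peaks that overlap a FoxA site, for all peaks (circles) and for 650 peaks per list (squares). The 3 controls lie at 36.7% to 41.5% and the nulls at 26.0% and 30.9% with all peaks, and the order of the groups is the same with equal lengths.

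Regions with and without a FoxA site were then compared within each list. Among the 3138 autosomal regions of controls 1 and 2, 1312 had a FoxA site. Control 3 held 30.3% of those with a site (27.9% to 32.9%) and 22.2% of those without (20.4% to 24.2%). Null 1 held 26.8% (24.5% to 29.3%) and 23.4% (21.6% to 25.4%), and null 2 held 15.7% (13.8% to 17.8%) and 15.4% (13.8% to 17.1%). Strength differed between the 2 kinds of region: 158 of the 314 regions of bin 1 and 84 of the 314 of bin 10 had a site. Within bins, the share held was higher with a site than without in 6 of 10 bins for control 3, in 5 for null 1 and in 1 for null 2, which in bin 3 held 16.2% with and 25.3% without. Whether the libraries differ in this was not tested. Among the reproducible autosomal regions, a FoxA site was present at 47.1% of kept (41.1% to 53.2%), 53.5% of partly kept and 48.6% of missing ones (43.1% to 54.1%).

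Methylation was read at the FoxA sites of each class. WGBS gave a level for 209 sites at kept, 221 at partly kept and 245 at missing regions, and 451 of these 675 sites overlap another of them and so share CpGs. Sites at kept regions averaged 8.76% and 11.3% in the controls and 9.85% and 9.29% in the developmental nulls. At partly kept regions the means were 10.2% and 12.5% against 11.9% and 10.9%. In both classes the nulls fell between the controls. At missing regions the means were 8.69% and 11.2% in the controls and 12.0% and 12.4% in the nulls, so both nulls were above both controls. The differences between these means were -0.48, 0.056 and 2.27 points for kept, partly kept and missing sites (exact permutation p = 1, 1 and 0.33, where 0.33 is the smallest possible with 2 against 2).

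A few sites carried the rise at missing regions. The 14 of 245 sites whose mean rose by over 20 points supplied 1.99 of the 2.27 points, and 4 of the 14 lie at 1 HNF6 region, chr15:82596497-82596671. These 14 were chosen by their rise, so a large part is built in. Sites chosen alike supplied 0.37 points at kept and 0.64 at partly kept regions, where the differences were -0.48 and 0.056. Without any HNF6 peak they supplied 2.70 of 4.43 points. The median difference per site was -0.077 points at missing, -0.88 at kept and -1.12 at partly kept regions, and 1.24 at sites without any HNF6 peak. The median level at missing regions was 5.59% and 8.10% in controls and 6.09% and 6.25% in nulls, so the nulls lay between the controls and the difference of medians was -0.67 points (p = 1 by exact permutation, an alternative added after seeing the data).

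The mean over sites at missing regions was higher than that at kept regions in both nulls and slightly lower in both controls. Missing minus kept was -0.072 and -0.17 points in the control libraries and 2.12 and 3.14 points in the nulls, a gap of 2.75 points (p = 0.33 by exact permutation, the lowest 2 against 2 can give). The gap was 1.51 points in the top bin of control rank (p = 0.667, exact permutation) and 4.04 in the middle bin (p = 0.33, exact permutation), while the bottom bin had no site at a kept region. With only peaks of −log10 q of 5 or more it was 1.69 points, and with medians in place of means 0.85 points (p = 0.67 by exact permutation). The same libraries averaged 21.5% and 23.2% in controls and 26.8% and 26.7% in nulls at the 30368 sites without any HNF6 peak, a difference of 4.43 points. The mean level of each HNF6 class was lower than that of these sites in every library. Control levels were unlike, at 20% or more in 36.4% of the sites without a peak and in 8.16% of those at missing regions.

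**Figure D5:**
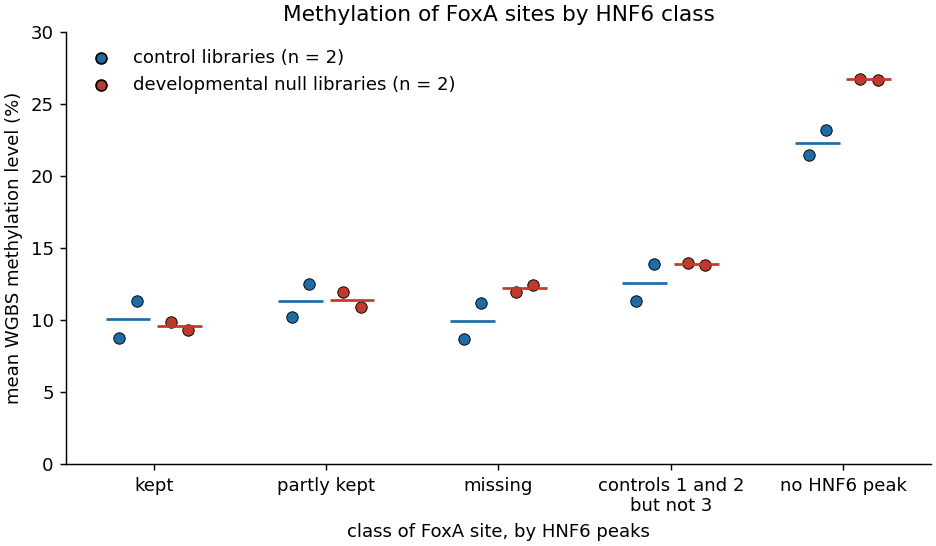
Mean WGBS level (%) of FoxA sites in each control (blue) and developmental null (red) library, by HNF6 class, with lines at the group means (n = 2 each). Nulls lie above controls at missing regions (12.0% and 12.4% against 8.69% and 11.2%) and at sites without an HNF6 peak, and between the controls at kept regions.

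Sites of like control level were compared next, in 4 bins of the mean control level. Below 5%, nulls minus controls was 0.83 points at the 46 sites of kept, 1.64 at the 47 of partly kept and 2.67 at the 74 of missing regions, and 1.54 at sites without a peak. Between 5% and 20%, where most HNF6 sites lie, it was -1.67 points at 144 kept, -1.87 at 146 partly kept and 1.26 at 151 missing sites, and 3.27 without a peak. Between 20% and 40% it was 6.06, 6.25 and 9.42 points at 16, 18 and 12 sites, and 9.07 without a peak. At 40% or more it was 1.52, 9.59 and 6.86 points at 3, 10 and 8 sites, and 6.23 without a peak. Missing sites were above kept sites in all 4 bins, and above sites without a peak in 3 of them. The control levels chose these sites, the bins from 20% up hold few HNF6 sites, and these contrasts were not tested.

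Single sites were tested with limma over the whole table (moderated test, Benjamini-Hochberg adjusted p under 0.05). Over all 33302 sites 4.17% rose and 0.246% fell. At missing regions 7 of 245 sites rose and 1 fell, at partly kept regions 2 of 221 rose and 1 fell, and at kept regions 0 of 209 rose or fell. Before adjustment, at p under 0.05, 24 sites were higher and 16 lower at missing, 16 and 10 at partly kept, and 7 and 8 at kept regions. The higher ones were 9.80%, 7.24% and 3.35% of their classes, against 16.4% of all sites. Of all 33302 sites 1178 were lower before adjustment, a smaller share than in each of the 3 classes, most so at missing regions. After adjustment the share that rose at missing regions, 2.86%, was below the 4.17% over all sites. The calls needed all 4 libraries: leaving out any 1 of them left 0 calls anywhere in the table, while 4805 to 5363 sites had p under 0.05 before adjustment. The authors' deposited list of hyper-methylated sites, which is exactly the sites whose mean rose by over 20 points in these libraries, holds 8.12% of all sites. It holds 14 of 245 at missing regions (5.71%, Wilson 3.43% to 9.36%), 4 of 221 at partly kept (1.81%, 0.706% to 4.56%) and 3 of 209 at kept regions (1.44%, 0.489% to 4.13%). These counts come from the same libraries as the levels and are not further evidence.

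The 7 sites that rose at missing regions were spread over 5 chromosomes. At chr1:154826835-154827234 the level was 0% and 6.52% in controls and 60.7% and 82.6% in nulls, a rise of 68.4 ± 8.07 points (SE; adjusted p = 0.018, limma). The HNF6 region there, chr1:154826998-154827148, had a fold enrichment of 10.4, 9.12 and 6.44 in the controls. At chr19:43868506-43868905 the level was 0% and 10.0% in controls and 50.0% and 60.0% in nulls (adjusted p = 0.020, limma), with 45.5% and 0% in the adult nulls. At chr4:85711871-85712270 it was 23.3% and 33.5% against 76.2% and 64.8%, and at chr11:61675763-61676162 it was 11.2% and 24.0% against 55.4% and 60.4%. In each of these 4 both nulls were above both controls by over 30 points. The site chr19:26494256-26494655 went from 16.1% and 17.4% to 48.6% and 54.8%, and its HNF6 region had a fold enrichment of 20.0, 13.2 and 5.00 in controls, of the 7 the highest in controls 1 and 2. The others were chr15:82596234-82596633, with 15.3% and 19.3% against 48.7% and 46.1%, and chr4:48922078-48922477, with 0% and 0% against 11.1% and 8.70%. The single site that fell at a missing region, chr5:87339858-87340257, had 14.3% and 16.0% in controls and 0% in both nulls. The 2 that rose at partly kept regions, chr4:76007649-76008048 and chr4:76007746-76008145, overlap each other and share levels of 19.1% and 21.2% against 65.9% and 70.4%, and the site that fell there, chr4:76007529-76007928, overlaps both.

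FoxA sites at the strong missing regions had mixed levels. Among the 8 named above, the FoxA site chr16:9527292-9527691 had 4.90% and 3.80% in controls and 5.69% and 4.03% in nulls. The site chr12:45008219-45008618 had 1.96% and 11.8% against 1.67% and 0%. At chr1:177538203-177538489, 2 of the 4 overlapping FoxA sites shared levels of 6.98% and 12.2% in controls and 26.1% and 31.6% in nulls (adjusted p = 0.105, limma), while the other two stood at 2.74% and 6.62% against 3.21% and 4.42%. Among the named kept regions, chr16:24078272-24078671 had 19.0% and 4.17% in controls and 53.8% and 28.6% in nulls (adjusted p = 0.18, limma). Of the other 5 FoxA sites at named kept regions, 4 were lower in nulls, with differences of -4.13 to -6.95 points, and the site at the strongest region, chr3:118194647-118195046, had 8.70% and 10.1% against 14.4% and 6.30%.

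Adult nulls gave a further set of levels for the same classes. At the sites found in both WGBS tables, the adult nulls averaged 7.37% and 8.24% at kept, 7.23% and 8.08% at partly kept and 7.62% and 7.47% at missing regions. The developmental nulls at the same sites averaged 10.0%, 10.7% and 11.7%, and the controls 10.5%, 10.8% and 9.89%. The adult table covers fewer sites, and 201 of the 245 sites at missing regions are in it.

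RRBS libraries, which are other samples, showed differences within their spread at every class, a spread that includes the 4 ages. Tiles within 500 bp of a reproducible region and measured in all 8 libraries numbered 56 for kept, 27 for partly kept and 50 for missing regions. At missing regions the controls stood at 23.1%, 14.1%, 11.6% and 12.4% at 20 days, 8 weeks, 4 months and 6 months, and the nulls at 19.7%, 16.1%, 15.0% and 13.3%. The null was lower at 20 days and higher at the 3 later ages. At kept regions the controls stood at 23.9%, 14.5%, 13.8% and 11% and the nulls at 23.7%, 15.9%, 14.4% and 13.9%. The difference of nulls minus controls was 0.70 points at missing (exact permutation p = 0.8), 1.20 at kept (p = 0.657, exact permutation) and 1.21 at partly kept regions (p = 0.83, exact permutation). At the other 369329 tiles it was 0.68 points (exact permutation p = 0.057). Controls stood there at 58.7% ± 0.25 and nulls at 59.4% ± 0.43 (SD, n = 4 each), far above the 3 classes. These tests ignore that each age has 1 control and 1 null. Paired by age, the exact p was 0.75 at missing, 0.25 at kept and 0.375 at partly kept regions. In the kept, partly kept and missing classes alike the 20 day livers had the highest level in both groups. Missing minus kept was -0.44 ± 1.46 points in controls and -0.94 ± 2.08 in nulls (SD, n = 4 each), a difference of -0.51 (exact permutation p = 0.743). When the classes were built without control 3 the difference was 0.74 points (exact permutation p = 0.0286, 1 of 4 differences tested under each setting), so this value depends on control 3.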

How the data were processed

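The HNF6 ChIP lists were called per library against its own input with MACS 2.1.1, per the file headers; adult null lists came from MACS 1.4.3. The deposited lists give peak fold enrichment (a ratio), −log10 of p and q values, and pileup, a signal in tags, all as the authors computed them; the sources used here do not give the aligner. The deposited methylation tables give fractions between 0 and 1, multiplied here by 100; Trim Galore 0.3.3, BSMAP 2.74 and the mm9 build are named in the submitters' processing notes. No coverage column was used, and the depth of a level is therefore unknown.

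Peaks were merged and compared by overlap of 1 bp in Python 3.11.15. Library values were compared by two-sided exact permutation tests (scipy 1.17.1), and shares have Wilson 95% intervals. Single sites were tested with limma 3.58.1 (R 4.3.3, percent scale, variance trend). Scripts were tested on simulated data. With 200 changed sites of 33302 limma recovered 0% at a change of 50 points. With 2000 changed sites it recovered 90.4% at 50 points but 0% at 20 or 30 points. Its calls thus depend on how many sites change and by how much, and a site without a call may still have changed. In the data a site was called at 9.90 points, so the simulation does not describe every site. Named regions were the 8 kept, 8 missing and 6 null-only regions of best mean rank, and named sites those past the limma threshold at missing regions. The members, lists and named-region rule were chosen with earlier results of these data known. Dense windows, autosomes, equal lengths on autosomes and FoxA shares were added after seeing the data. Alternatives were overlap rules, q and fold thresholds, list length, left-out libraries, site and level filters, the limma scale and pairing.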

Additional observations from a re-analysis of the deposited data

How the results depend on the processing

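Of 175 alternative values of results with an exact test, 147 kept their direction and side of the threshold and 28 changed sign. None of the main values passed 0.05. The smallest possible p was 0.2 for HNF6 and FoxA shares and 0.33 for WGBS levels (exact permutation), so these could not pass it. Only RRBS tests of 4 against 4 libraries could, with a smallest exact permutation p of 0.029. For the other results only the direction could change. For null 1 and null 2 the share of reproducible control regions held was 50.9% and 34.4% with −log10 q of 5 or more, 39.5% and 52.3% with equal numbers of peaks, 52.5% and 40.3% on autosomes, 56.9% and 59.8% on autosomes with equal numbers, 84.5% and 58.4% on chromosome X, and 52.3% and 40.1% outside dense windows. With a null summit within 100 bp of the region centre it was 56.9% for null 1. So the order of the nulls turned with equal numbers. Without single libraries it ranged from 30.5% to 61.3% for null 1 and from 19.2% to 45.2% for null 2, lowest without control 3.

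The peak number difference ranged from -3055 to -941 without single libraries, and on chromosome X alone it was 303 (exact permutation p = 0.8). The difference in the share of control pair regions was -34.8 to -19.6 points without a null; leaving out a control could not be computed, since 2 controls leave no pair for a control. The FoxA share difference ranged from -12.7 to -7.77 points.

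For WGBS, missing minus kept ranged from 1.84 to 3.26 points without single libraries, missing from 1.02 to 3.51, kept from -1.78 to 0.81 and partly kept from -1.10 to 1.21. Partly kept also changed sign, to -0.034 with regions of at least 2 control lists, -0.47 with 1 site per region, -0.67 and -0.24 in the middle and bottom rank bins, and -0.37 at control levels of 5% to 95%; the cause was not tested. With medians over sites partly kept was -1.56 and missing turned to -0.67. Sites called by limma were 3135 higher and 243 lower with mean levels of 5% to 95%, and 0 and 0 without any single library. With a replicate block there were 970 higher and 42 lower. Deviations of same-numbered libraries had r = -0.0044, which cannot show whether they were paired, and the labels do not say.

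For RRBS within 200 bp the differences were -1.32 at kept, -0.82 at partly kept and -0.79 at missing regions, and 0.53 for missing minus kept, all of changed sign. Without single libraries they ranged from -1.04 to 3.90, -2.13 to 5.17, -0.53 to 3.30 and -1.17 to 0.74. Depth limits are unknown for methylation.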

Other observations

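Controls 1 and 2 allow the methylation of FoxA sites to be read by the absence of a peak from control 3 as well as from the nulls; this split was made after the values above were seen. Where control 3 had a peak, sites in neither null averaged 9.93% in controls and 12.2% in nulls. Where control 3 lacked one, the 1101 sites in neither null averaged 11.9% and 14.6% in controls and 15.0% and 14.7% in nulls, which differ by 1.65 points (p = 0.33 by exact permutation, the lowest 2 against 2 can give). The 41 sites that both nulls held and control 3 lacked averaged 6.54% and 8.42% in controls and 6.90% and 7.21% in nulls, which differ by -0.42 points (p = 1 by exact permutation). The gap of sites in neither null over sites in both, nulls minus controls, was 2.75 points with a control 3 peak and 2.07 without. Sites without a control 3 peak were also set against sites with one. At regions in neither null this gap was 3.20 and 3.38 points in controls and 3.03 and 2.32 in nulls. At regions in 1 null it was -1.36 and -1.41 in controls and -2.25 and -1.12 in nulls. At regions in both it was -2.22 and -2.96 in controls and -2.94 and -2.11 in nulls. Nulls minus controls, these gaps differed by -0.61 to 0.060 points. Regions held by both nulls but not control 3 numbered 85, and 30.6% of them had a FoxA site, against 48.6% of the 317 held by control 3 and neither null. The share was 41.8% of all 3138 regions of controls 1 and 2, 45.1% of those held by null 1 and 42.3% of those held by null 2.

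Overlapping FoxA sites went opposite ways at 1 HNF6 region. At the partly kept region chr4:76007806-76008047, the sites chr4:76007649-76008048 and chr4:76007746-76008145 had the same levels, 19.1% and 21.2% in controls and 65.9% and 70.4% in nulls (adjusted p = 0.014, limma). The site chr4:76007529-76007928, shifted upstream, had 11.8% in both controls and 0% in both nulls (adjusted p = 0.031, limma), with 0% and 12.0% in the adult nulls. This call depended on the setting. Falls at partly kept regions numbered 0 with a replicate block and 0 without a variance trend. They numbered 2 on the logit scale and 3 with mean levels of 5% to 95%. The depth of these levels is unknown. Null 1 had a peak in that region with a fold enrichment of 7.32, the controls had 22.7, 16.2 and 8.05, and null 2 had none. The largest peak width in null 1 was 9394 bp, against 614 to 1342 bp in the other 4 lists.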
